A study of Mus musculus with 4 samples.

Results

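Potassium channel subunits are the 92 genes, of 53465 genes listed in the count files, whose symbol consists of Kcn, a lower-case letter code and a number. They comprise 77 genes for pore-forming subunits and 15 genes for auxiliary subunits, and 47 of the 92 had at least 10 counts in every library. The RNA came from primary (1°) mouse oligodendroglial cells (OGCs), isolated from forebrain at postnatal day 2 to 4, subjected to a step that depletes microglia and cultured for 3 days under differentiating conditions. Ctrl cells carried the Zfp276 flox/flox allele alone, and Zfp276cko cells carried the same allele together with the Sox10::Cre transgene, so that the genotypes differed in the transgene as well as in the deletion, and the mice had a mixed background of C3H and C57Bl/6J. A Rosa26 stopfloxtdTomato reporter allele was crossed into the mice used for cultures to recognise Zfp276cko pups, and the sources used here do not say whether ctrl mice carried it. Cre is active in this model in cells that use the Sox10 regulatory regions, where the paper reports incomplete recombination from stainings of spinal cord. Other cells of a culture keep the floxed allele. There were 2 preparations of each genotype, each pooled from 3 mice.

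Potassium channels let potassium ions leave or enter a cell along their gradient and thereby set the resting potential and shape its changes. Voltage-gated (Kv) channels open upon depolarisation, calcium-activated channels (BK and SK) open upon a rise of calcium, inward rectifiers (Kir) carry current near the resting potential, and tandem pore domain (K2P) channels provide a leak. In the oligodendrocyte (OL) lineage, OL precursor cells (OPCs) are known for voltage-gated potassium currents, whereas maturing OLs become dominated by inward rectifier current through Kcnj10, a Kir channel that is also prominent in astrocytes. Auxiliary subunits do not form a pore but alter gating or surface expression of the channels.

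All pore-forming subunits share the stretch that lines the selectivity filter, where the ions lose their water shell. In the longest coding sequence of each gene in the GENCODE annotation of mm10, a script searched for the potassium channel signature, spelled here as serine or threonine, any residue, glycine, then tyrosine, phenylalanine or leucine, and glycine. All 77 pore-forming members had at least 1 match and none of the 15 auxiliary members had one, while 5.03% of 21702 other protein-coding genes held a match. Each of the 14 K2P genes, whose subunits carry a pair of pore domains, had at least 2 matches. The stretches of Kcnj10, Kcnma1 and Kcnn1, which had an unadjusted p of at most 0.05 past the thresholds on fold and mean, are shown because the shared signature marks these members of the Kir, BK and SK families as pores, with the 15 bases of the signature in capitals and the coding strand of mm10 written 5′ to 3′.
Kcnj10 (chr1:172369296-172369325, plus strand): cagaccACCATCGGCTATGGCttccgctac
Kcnma1 (chr14:23528404-23528433, minus strand): atgtctACAGTGGGTTATGGGgacgtttat
Kcnn1 (chr8:70850648-70850677, minus strand): ttcttgTCCATTGGCTATGGAgacatggtg
Over whole transcripts, no run of 101 bases, the read length, was shared between Kcnj10, Kcnj12 or Kcnn3 and any other annotated gene, and 0.643%, 0.840% and 4.92% of such runs were shared for Kcnn1, Kcnq5 and Kcnma1.

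The libraries held between 21068322 and 26599809 counts, of which between 0.149% (95% Wilson interval 0.147 to 0.150) and 0.165% (0.164 to 0.167) fell on the 92 genes. These intervals cover counting error only. Zfp276 itself had 1648 and 2230 normalized counts in the ctrl pair, against 490 and 503 in the Zfp276cko pair, so that 25.6% of the ctrl level remained in a count that also includes the exons outside the deletion (log2 fold change −1.97, edgeR adjusted p = 0.0962, DESeq2 adjusted p = 1.16e-14, up to 0.99994 over 9 alternatives). The paper relates its own remaining Zfp276 RNA to incomplete deletion, which it also saw in stainings of Zfp276cko spinal cord. For normalized counts, each library was scaled to the average effective library size. The ctrl libraries stood apart from each other. A distance of 2-fold or more separated ctrl 1 from ctrl 2 in 12.8%, and Zfp276cko 1 from Zfp276cko 2 in 0.335%, of the 14324 genes whose normalized counts averaged 20 or more. Summed markers of neurons were at 1401 and 6615 normalized counts in ctrl 1 and ctrl 2, against 4324 and 4261 in the Zfp276cko pair, those of vessels and fibroblasts at 5720 and 249 against 358 and 304, and those of microglia at 41142 and 20772 against 26310 and 27271. Of the 10 microglia markers, 2 were higher in ctrl 2 than in ctrl 1, namely Aif1 (1248 and 3204) and, slightly, Cx3cr1 (2290 and 2369). Defining genes of these cell types (Rbfox3 and Gad1, Col1a1 and Col1a2, Csf1r and C1qa) were detected in every library, while Cldn5 had no count in any. All 8 OL markers were expressed, and for 7 of them (beside 23.7% of all tested genes) the Zfp276cko pair was lower than the ctrl pair. The median over all 8 was −0.87 on the log2 scale. The exception was Sox10, which the paper treats as a marker of the whole lineage, at 18135 and 20744 against 17805 and 18611. Of 4 genes listed as OPC markers, 3 were lower in the Zfp276cko pair (beside 23.7% of all tested genes). On the log2 scale Gpr17 was at −1.12, whereas Cspg4, Ptprz1 and Pdgfra were at −0.59, −0.25 and −0.13. The sum of all 4 was 163585 and 122721 in the ctrl pair, against 86979 and 84678. Much of it was Gpr17, at 113405 and 69766 in the ctrl pair, against 43296 and 41092. Pdgfra, the OPC marker of the study's stainings, overlapped between genotypes, at 10049 and 15501 against 11842 and 11561. In bulk RNA, fewer cells of a type and less RNA per cell cannot be told apart.

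Levels of different genes were compared as CPM (normalized counts scaled to a common library total) per kb of exon, using the exon lengths of the annotation. Kcnj10 had by far the highest level of the 92 genes, with 138 and 100 in the ctrl pair, against 74.8 and 74.6 in the Zfp276cko pair. It alone accounted for 42.3% (95% Wilson interval 41.8 to 42.8) and 32.7% (32.2 to 33.2) of all potassium channel counts in ctrl 1 and 2, and for 28.1% (27.6 to 28.6) and 27.6% (27.2 to 28.1) in Zfp276cko 1 and 2. Next came Kcna6, a Kv1 subunit, with levels between 33.6 and 49.2, and Kcna2, another Kv1 subunit that forms channels together with other Kv1 subunits, with mean levels of 14.1 in ctrl and 15.7 in Zfp276cko. The Kv4-binding calcium sensor Kcnip3 reached levels between 8.69 and 18.7 and the Kv4 subunit Kcnd3 between 8.90 and 11.2. From Kcna2 on, neighbours in this order overlapped in their range over the 4 libraries. Kcnd2 (between 5.49 and 9.80), the Kv1 beta subunit Kcnab2 (5.33 and 7.97), Kcna1 (3.68 and 10.4) and the G protein-gated Kir subunit Kcnj3 (3.33 and 6.57) followed. Apart from Kcnj10, the summed normalized counts of the 92 genes were 24002 and 26366 in the ctrl pair, against 24462 and 24995 in the Zfp276cko pair, and thus overlapped between genotypes.

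**Figure D1:**
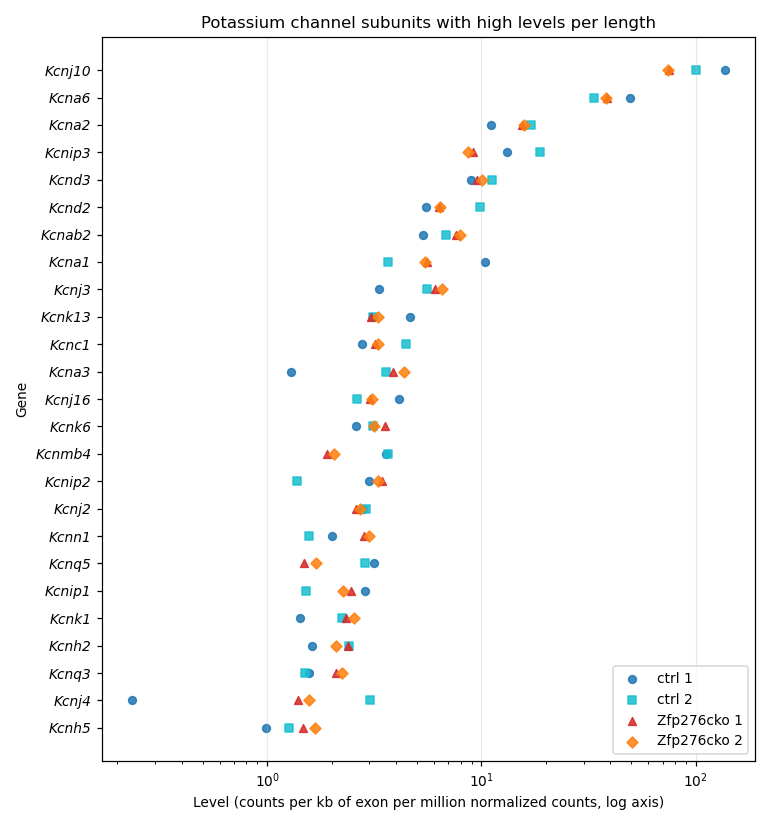
Levels of 25 tested potassium channel subunits with high mean levels, in CPM per kb of exon on a log axis, with 1 symbol per library. Kcnj10 lies between 74.6 and 138 and Kcna6 between 33.6 and 49.2, above all other members, and the 2 Zfp276cko symbols lie close together in most rows.

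To find out which potassium channel subunits differ between genotypes, the 59 members that passed the filter on low counts were compared within a fit over all 15766 tested genes. Their log2 fold changes (Zfp276cko relative to ctrl) ranged from −1.95 for Kcnj12 to 1.70 for Kcnc2, with 26 below 0 and 33 above 0. The median was 0.07, beside −0.0013 over all tested genes. A log2 fold change of −0.6 or lower was found in 11 members, beside 7.48% of all tested genes, and of 0.6 or higher in 10, beside 11.3%, together 21 of 59 beside 18.8%. With a threshold of 0.05 on the adjusted p, of 0.6 on the size of the log2 fold change and of 20 on the mean normalized count, edgeR's quasi-likelihood test called 0 members lower and 0 higher, as it called 0% of all tested genes in either direction. The smallest edgeR adjusted p of a member was 0.139. At an unadjusted p of at most 0.05 with the same thresholds on fold and mean, 7 members were lower, among them Kcnj10, Kcnj12, Kcnq5, Kcnma1, Kcnmb4 and Kcnip3, and 2 were higher, namely Kcnn1 and Kcnn3. These make 11.9% and 3.39% of the tested members, beside 3.02% lower and 5.11% higher over all tested genes. Without thresholds on fold and mean, Kcnq3 joined them, and the 10 genes make 16.9% of the tested members, beside 15.6% of all tested genes. DESeq2, the tool of the study, called 4 of the 59 tested members lower (Kcnj10, Kcnq5, Kcnmb4 and Kcnip3) and 1 higher (Kcnn3), beside 2.3% and 3.05% of all genes it tested. Kcnc2, Kcnh8, Kcnip4 and Kcns2 had no adjusted p from DESeq2. Over the 9 alternatives computed for single genes, the edgeR or DESeq2 adjusted p ranged up to 0.99994 for every tested member named by rule and down to 1.21e-09 for Kcnj10, 6.98e-09 for Kcnip3, 3.63e-07 for Kcnq5, 2.22e-06 for Kcnn3 and 2.54e-05 for Kcnmb4. The number of calls depended on which libraries were included. Without ctrl 1, edgeR called 13 members lower and 9 higher (beside 5.94% and 9.96% of all genes), without ctrl 2 it called 10 and 14 (beside 7.99% and 10.5%), and without either Zfp276cko library edgeR called 0 (beside 0% of all genes). DESeq2 likewise called 0 members without either Zfp276cko library, beside 0.106% lower and 0.53% higher of all genes without Zfp276cko 1, and 0.0988% and 0.473% without Zfp276cko 2. DESeq2 called Kcnq5, Kcnmb4 and Kcnn3 both without ctrl 1 and without ctrl 2, but Kcnip3 only without ctrl 1 and Kcnj10 only without ctrl 2.

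**Figure D2:**
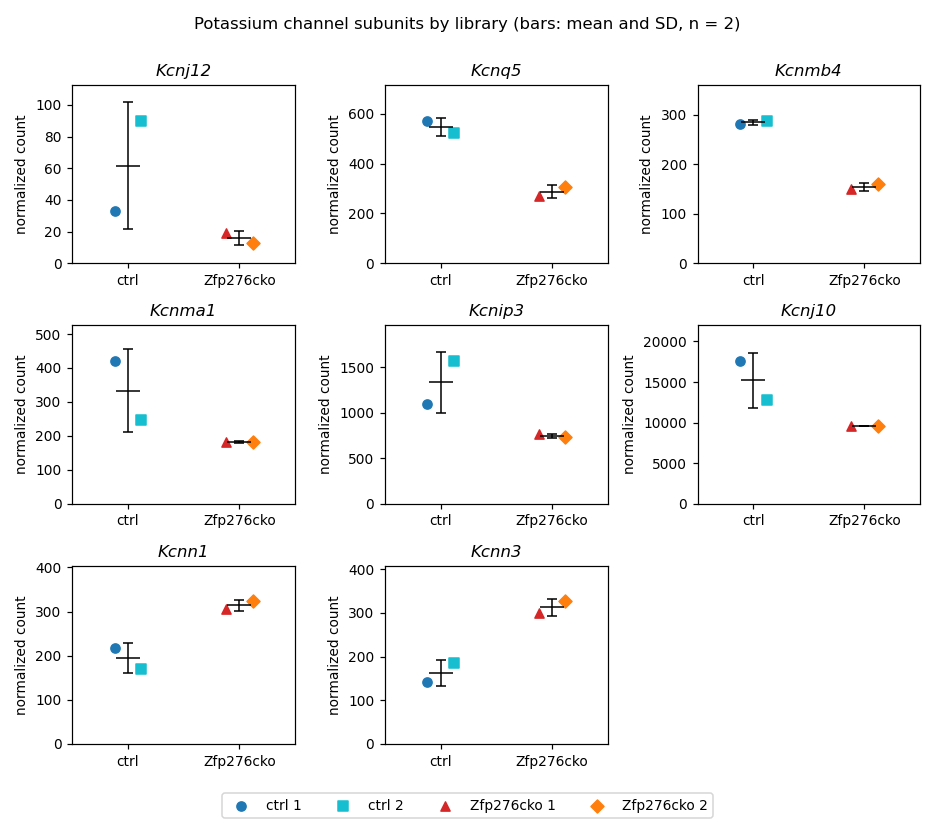
Normalized counts per library of 8 members past the fold and mean thresholds whose unadjusted p was at most 0.05, with the mean and SD of 2 libraries per genotype on axes that start at 0. In all 8 panels the Zfp276cko symbols lie on one side of both ctrl symbols, below them in 6 panels and above them for Kcnn1 and Kcnn3.

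The Zfp276cko pair lay below the ctrl pair in 10 of the 59 tested members (16.9%, beside 23.7% of all tested genes) and above it in 18 (30.5%, beside 26.8%). In 27 members (45.8%, beside 27.7%) the Zfp276cko pair lay between ctrl 1 and ctrl 2. With 2 libraries against 2, an exact permutation test of a single gene cannot go below a two-sided p of 0.333.

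**Figure D3:**
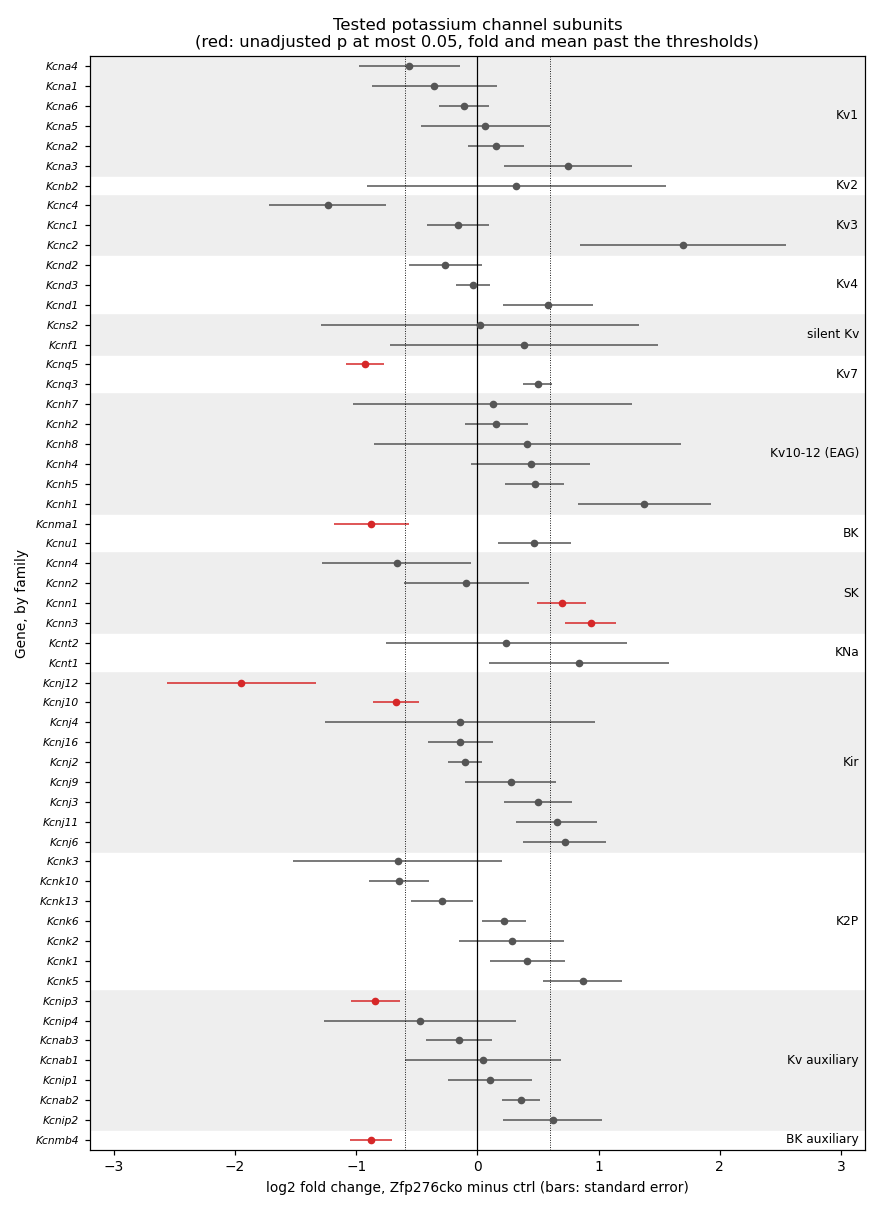
Log2 fold change of 55 tested members by family, Zfp276cko minus ctrl, with bars for the standard error and dotted lines at 0.6 in either direction. Red points mark the 8 of these members with an unadjusted p of at most 0.05 past the fold and mean thresholds, and the bars are wide for members whose ctrl replicates differ, such as Kcnb2 and Kcnh7.

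Among the inward rectifiers, Kcnj10 (chromosome 1 of mm10, 172341210 to 172374085, plus strand) had 17586 and 12813 normalized counts in the ctrl pair, against 9561 and 9536 in the Zfp276cko pair. The Zfp276cko pair was lower than the ctrl pair, and the ctrl replicates differed by more than the distance between the lower one and the Zfp276cko libraries. The means were 15199 ± 3375 (SD, n = 2) and 9548 ± 17.7 (SD, n = 2), so that 62.8% of the ctrl level was found. The log2 fold change was −0.67 (standard error, SE, 0.19, edgeR adjusted p = 0.237, DESeq2 adjusted p = 0.0395), and leaving out ctrl 1 or ctrl 2 turned it into −0.42 or −0.89. Summed astrocyte markers were at 34637 and 28157 normalized counts in ctrl and at 31003 and 29681 in Zfp276cko libraries. Much of this sum was Gfap, at 17641 and 8463 against 12993 and 12248, whereas 5 of the 8 markers were higher in ctrl 2 than in ctrl 1. Of the 8, the Zfp276cko pair lay below the ctrl pair in 1 (beside 23.7% of all tested genes) and above it in 1 (beside 26.8%). The part of astrocytes in the Kcnj10 counts was not tested.

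Kcnj12, a strong inward rectifier (chromosome 11, 61022564 to 61071131, plus strand), was much less abundant, with 33.2 and 90.0 normalized counts in the ctrl pair, against 19.0 and 12.9 in the Zfp276cko pair. The groups did not overlap, but the ctrl libraries were farther apart than ctrl 1 was from the Zfp276cko libraries. Its log2 fold change of −1.95 (SE 0.61, edgeR adjusted p = 0.274) was the lowest of the 59 tested members and was −1.07 without ctrl replicate 2. Kcnj2, which encodes another strong inward rectifier, had 362 and 372 against 334 and 351 normalized counts and a log2 fold change of −0.10 (SE 0.14). Kcnj16, a subunit that assembles with Kcnj10, had 383 and 243 normalized counts in the ctrl pair, against 281 and 288 in the Zfp276cko pair. The Zfp276cko values of Kcnj16 lay between the ctrl values, and its log2 fold change of −0.14 (SE 0.27) became 0.23 without ctrl replicate 1. The G protein-gated subunits Kcnj3, Kcnj6 and Kcnj9 had log2 fold changes of 0.50, 0.72 and 0.28, at an edgeR adjusted p between 0.409 and 0.770, Kcnj6 and Kcnj9 being named after their values were seen. Of Kcnj3, 1621 bases of exon overlap an annotated gene on the opposite strand, as do 1016 bases of Kcnma1 and 604 of Kcnk2, and the strand setting of the counting is not given in the sources used here. Over the 9 tested Kir genes, 5 had a log2 fold change below 0 and 4 above 0, with a median of −0.10.

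In the Kv7 family, whose members give slow, non-inactivating currents that restrain excitability, 2 of the 4 tested genes had a log2 fold change below 0 and 2 above 0, with a median of −0.44. Kcnq5 (chromosome 1, 21398403 to 21961942, minus strand) had 572 and 522 normalized counts in the ctrl pair, against 270 and 306 in the Zfp276cko pair. Both groups were narrow and separate, with means of 547 ± 35.4 and 288 ± 25.6 (SD, n = 2 each). At −0.93 (SE 0.15) on the log2 scale, its edgeR adjusted p of 0.139 was the smallest of all members, and its DESeq2 adjusted p was 0.00142. With any one library left out, it stayed between −1.02 and −0.83.

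Kcnq3 pointed the other way, with 545 and 520 normalized counts in the ctrl pair, against 728 and 778 in the Zfp276cko pair. The groups of Kcnq3 did not overlap, and its log2 fold change of 0.50 (SE 0.12, edgeR adjusted p = 0.197, DESeq2 adjusted p = 0.139) was below the fold threshold.

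The large-conductance calcium-activated (BK) channel is formed by Kcnma1 and modulated by beta subunits, of which Kcnmb4 is the one best known from the nervous system. Kcnmb4 (chromosome 10, 116417861 to 116473878, minus strand) had 281 and 288 normalized counts in the ctrl pair, against 149 and 161 in the Zfp276cko pair. The ctrl replicates were almost equal here, and the distance between the genotypes exceeded the spread within either of them. The log2 fold change was −0.88 (SE 0.17, edgeR adjusted p = 0.170, DESeq2 adjusted p = 0.0155), and it stayed between −0.93 and −0.82 with any one library left out. Of its transcripts, 26.5% of the runs of 101 bases are shared with other annotated genes, mainly Kcnmb4os2 on the opposite strand.

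Kcnma1 (chromosome 14, 23289431 to 24014491, minus strand) had 420 and 246 normalized counts in the ctrl pair, against 180 and 183 in the Zfp276cko pair. The Zfp276cko pair was below the ctrl pair, with ctrl 1 well above ctrl 2. The log2 fold change of −0.88 (SE 0.31, edgeR adjusted p = 0.310, DESeq2 adjusted p = 0.176) became −0.44 without ctrl replicate 1. The remaining BK beta subunit genes Kcnmb1, Kcnmb2 and Kcnmb3 did not pass the filter, with at most 2 counts in any library.

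Of the 4 small- and intermediate-conductance calcium-activated (SK) channel genes, which couple calcium signals to hyperpolarisation, 2 had higher values in the Zfp276cko pair (beside 26.8% of all tested genes). Kcnn3 (chromosome 3, 89520164 to 89675132, plus strand) had 142 and 185 normalized counts in the ctrl pair, against 300 and 326 in the Zfp276cko pair. The Zfp276cko mean was 191% of the ctrl mean, and the groups did not overlap. For Kcnn3 the log2 fold change of 0.94 (SE 0.21, edgeR adjusted p = 0.188, DESeq2 adjusted p = 0.0297) became 0.76 if ctrl 1, and 1.12 if ctrl 2, was left out.

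Kcnn1 (chromosome 8, 70842049 to 70863258, minus strand) had 218 and 170 normalized counts in the ctrl pair, against 306 and 323 in the Zfp276cko pair. At 0.70 (SE 0.20) on the log2 scale, it had an edgeR adjusted p of 0.251 and a DESeq2 adjusted p of 0.180, and was at 0.51 without ctrl replicate 2. Kcnn2 had 48.7 and 126 against 87.8 and 76.5 normalized counts, a log2 fold change of −0.09. Kcnn4, which is known from microglia and from blood cells, had 131 and 40.5 normalized counts in the ctrl pair, against 55.2 and 52.4 in the Zfp276cko pair. Its log2 fold change of −0.67 (SE 0.61) turned to 0.41 without ctrl replicate 1. The part of microglia in the Kcnn4 counts was not tested.

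Of the Kv1 genes, which contribute to the delayed rectifier and A-type currents of OPCs, none of the 6 tested members had an unadjusted p of at most 0.05. Kcna6 had 6920 and 4723 normalized counts in the ctrl pair, against 5416 and 5369 in the Zfp276cko pair, a log2 fold change of −0.11 (SE 0.21). The Zfp276cko values were thus between the ctrl values, and 38.0% of the runs of 101 bases in its transcripts also occur in other genes, mainly the opposite-strand gene Gm26673. Kcna2 behaved alike, with 3131 and 4787 against 4356 and 4456 normalized counts and a log2 fold change of 0.15 (SE 0.23). Kcna1, another subunit of such channels, had 1177 and 415 against 629 and 616 normalized counts, again between the ctrl values. Kcna3, which has been tied to OPC proliferation and is also found in microglia, had 58.2 and 162 normalized counts in the ctrl pair, against 175 and 196 in the Zfp276cko pair. Its log2 fold change of 0.75 (SE 0.53, edgeR adjusted p = 0.556) shrank to 0.20 without ctrl replicate 1, and ctrl 2 lay close to the Zfp276cko libraries. Kcna4 and Kcna5 were at −0.56 and 0.07 on the log2 scale, at an edgeR adjusted p of 0.572 and 0.968.

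For the other voltage-gated families, the difference between genotypes was mostly smaller than that between the ctrl replicates. Kcnd2 and Kcnd3, which form A-type Kv4 channels, had log2 fold changes of −0.26 (SE 0.30) and −0.04 (SE 0.14), and the Zfp276cko values of both lay between the ctrl values. The fast-gating Kv3 subunit Kcnc1 had −0.16 (SE 0.26), again with both Zfp276cko libraries between the ctrl libraries. The less abundant Kcnc4 (45.1 and 23.6 against 11.8 and 17.2 normalized counts) and Kcnd1 (102 and 55.1 against 114 and 121), named after their values were seen, were separate between genotypes, at −1.24 (SE 0.48, edgeR adjusted p = 0.342) and 0.58 (SE 0.37, edgeR adjusted p = 0.517) on the log2 scale. Of 10 silent Kv genes, whose subunits modify Kv2 channels, only Kcnf1 and Kcns2 were tested, at 0.38 and 0.02. All 6 tested genes of the EAG family (Kcnh1, Kcnh2, Kcnh4, Kcnh5, Kcnh7 and Kcnh8) had a log2 fold change above 0, between 0.13 and 1.38, but none an unadjusted p of at most 0.05. In Kcnh1 and Kcnh5, 2 of the 6, the Zfp276cko pair lay above the ctrl pair, beside 26.8% of all tested genes.

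Among the auxiliary subunits, 8 of 15 were tested. Kcnip3 (chromosome 2, 127456498 to 127522094, minus strand), also known as calsenilin and as the transcriptional repressor DREAM, had 1099 and 1571 normalized counts in the ctrl pair, against 763 and 729 in the Zfp276cko pair. The Zfp276cko mean was 55.8% of the ctrl mean and both groups were separate. Its log2 fold change of −0.84 (SE 0.20, edgeR adjusted p = 0.199, DESeq2 adjusted p = 0.0164) became −1.07 if ctrl 1, and −0.57 if ctrl 2, was left out. The other tested Kv4-interacting genes Kcnip1, Kcnip2 and Kcnip4, named for comparison after their values were seen, had 0.11, 0.62 and −0.47. Kcnab2 had 703 and 898 normalized counts in the ctrl pair, against 1003 and 1051 in the Zfp276cko pair, a log2 fold change of 0.36 (SE 0.16, edgeR adjusted p = 0.376).

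Of the 14 K2P genes, 7 were tested and none had an unadjusted p of at most 0.05. Kcnk5, named after its values were seen, came nearest with 19.0 and 19.1 against 39.8 and 30.1 normalized counts, at 0.87 (SE 0.33, edgeR adjusted p = 0.330) on the log2 scale. Kcnk10, the next, had 261 and 383 normalized counts in the ctrl pair, against 201 and 211 in the Zfp276cko pair, with a log2 fold change of −0.64 (SE 0.25, edgeR adjusted p = 0.336). Kcnk13, known as the tonically active channel of microglia, had 343 and 230 against 225 and 241 normalized counts, with ctrl 2 between the Zfp276cko libraries. The log2 fold changes of Kcnk1, Kcnk2 and Kcnk6 were 0.41, 0.28 and 0.22 with standard errors of 0.31, 0.44 and 0.18.

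The ctrl libraries themselves differed in many potassium channel subunits. Among the 53 members whose normalized counts averaged 20 or more, ctrl 1 and ctrl 2 were 2-fold or more apart in 17 (32.1%, beside 12.8% of all genes), whereas Zfp276cko 1 and Zfp276cko 2 were so in 0 (beside 0.335%). Over these 53 genes the counts of Zfp276cko 1 and 2 agreed within sampling noise, with a chi-square per degree of freedom of 0.949, which was 66.1 for the ctrl pair. Over all 14324 genes with a mean of at least 20, however, it was 5.63 for the Zfp276cko pair. This value cannot tell separate preparations from repeated libraries of the same preparation, and the pair was treated as 2 preparations because it is labelled so. The biological coefficient of variation from edgeR, which measures spread between replicates, was 0.357 in ctrl and 0.048 in Zfp276cko over all tested genes. Of the 17 members, 12 were higher in ctrl 2 and 5 in ctrl 1. The widest ratio, 23.0-fold, belonged to Kcnb2, with 4.75 and 109 normalized counts in the ctrl pair, against 72.4 and 70.5 in the Zfp276cko pair. Kcnh7 (5.94 and 93.4), Kcnj4 (11.9 and 154) and Kcnf1 (19.0 and 241) likewise had fewer counts in ctrl 1 than in ctrl 2. Their Zfp276cko values lay between the ctrl values, as did the sum of the neuronal markers. All 9 tested neuronal markers were higher in ctrl 2 than in ctrl 1, though Nefl hardly differed (41.6 and 43.9). Slc17a7, which did not pass the filter, had the opposite order (5.94 and 2.25). The opposite order was seen in Kcnt2, a sodium-activated channel, with 93.8 and 10.1 in ctrl against 56.1 and 66.2, and in Kcna1, Kcnn4, Kcnip2 and Kcnab1. Genes named here only for their ctrl ratio were picked with these values in view, and the part of neurons or other cells in these counts was not tested.

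**Figure D4:**
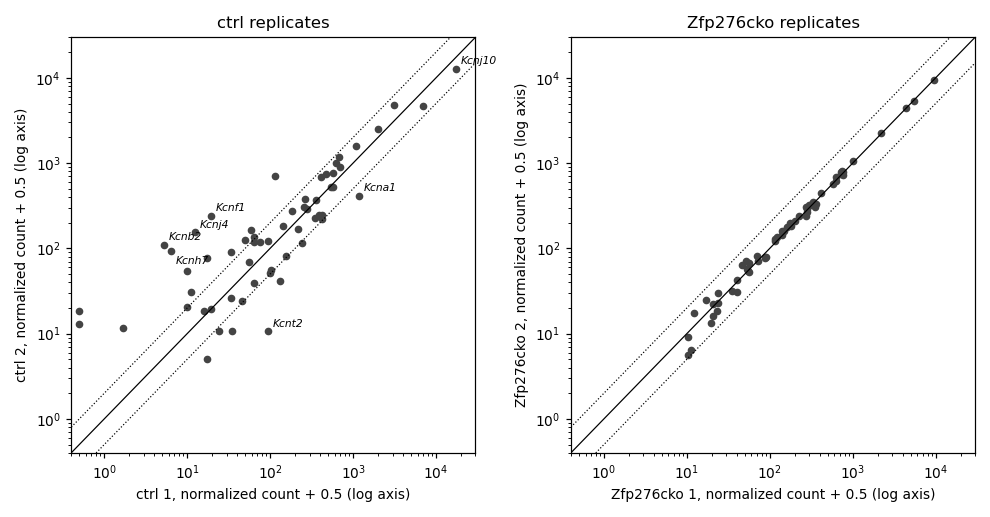
Normalized counts plus 0.5 of the 59 tested members on log axes, ctrl 2 against ctrl 1 on the left and Zfp276cko 2 against Zfp276cko 1 on the right, with lines at equality and dotted lines at a 2-fold difference. In the ctrl panel 17 of the 53 members averaging 20 or more are 2-fold or more apart, led by Kcnb2 at 23.0-fold, and in the Zfp276cko panel the largest difference among these members is 1.48-fold.

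The 33 members that did not pass the filter had at most 14 counts in any library, and 20 of them had 3 counts or fewer in every library. Kcne1, Kcnk7, Kcnk16 and Kcnv2 had 0 counts in all 4 libraries, which allows up to 0.0318 CPM over the libraries together. Kcnj8, a Kir subunit of mural cells, had counts of 0 and 4 in the ctrl pair, against 1 and 1 in the Zfp276cko pair. Kcne4, singled out for its values, had counts of 14 and 8 in the ctrl pair but 0 and 1 in the Zfp276cko pair. Its ratio of ctrl to Zfp276cko was 28.8 (exact 95% interval 4.66 to 1190, for counting error only). The 12 tested members with fewer than 10 counts in some library, such as Kcnc2 (SE 0.85) and Kcns2 (SE 1.31), have wide errors.

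Genes that work with potassium channels or move potassium by other means were taken as a list of 30, of which 25 were tested. Their median log2 fold change was −0.05, and the Zfp276cko pair lay below the ctrl pair in 5 of the 25 (beside 23.7% of all tested genes) and above it in 2 (beside 26.8%). At an unadjusted p of at most 0.05 past the fold and mean thresholds, 1 of them was lower (beside 3.02% of all tested genes) and 1 was higher (beside 5.11%). The higher one, Slc12a7, a potassium-chloride cotransporter, had 426 and 623 normalized counts in the ctrl pair, against 1448 and 1330 in the Zfp276cko pair, which is 1.40 on the log2 scale (edgeR adjusted p = 0.132, DESeq2 adjusted p = 1.1e-05).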

How the data were processed

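RNA-Seq counts of 2 ctrl and 2 Zfp276cko preparations were used. Reads were mapped by the authors with STAR 2.5.4a onto mm10, who deposited whole-number counts of unique mappings per gene symbol, without normalization. The study's methods name HTSeq and the submitters' processing notes featureCounts 1.5.1 for this step, and the strand setting is not given in the sources used here. Genes were kept with the filterByExpr function, normalized with TMM and compared with the quasi-likelihood test of edgeR 4.0.16 in R 4.3.3 (Benjamini-Hochberg adjustment over all 15766 tested genes, no covariates). Standard errors are the log2 fold change divided by the square root of the F statistic. DESeq2 1.42.0, other normalization and filters, a replicate block, an unadjusted p and leaving out each library served as alternatives. There were 2 libraries per genotype, and the variance of a gene was estimated over both genotypes together and moderated over all genes. The p-values and standard errors thus pool the wide spread of the ctrl pair with the narrow spread of the Zfp276cko pair. The scripts were tested on simulated counts.

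Named genes were Zfp276, members with an unadjusted p of at most 0.05 past the thresholds or called by DESeq2, the 10 highest levels per kb, and members known from glia or other cells of such cultures. Of the partner list, genes past the same thresholds were named. The members and lists were chosen with earlier results of these data known. Positions, exon lengths and sequences came from the GENCODE vM21 annotation of mm10, in which all 92 symbols were found, and sequences of proteins were not used here. Some genes and sequences that these rules cover are not reported here.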

Additional observations from a re-analysis of the deposited data

How the results depend on the processing

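The number of called members depended on the test and on the ctrl libraries. No member was called lower or higher by edgeR's quasi-likelihood test with the size factors of DESeq2, without a filter, with at least 10 counts in every library or with a replicate block. DESeq2 called 4 lower and 1 higher, and an unadjusted p gave 7 and 2. With one library left out, edgeR called between 0 and 13 members lower and between 0 and 14 higher. It called 13 lower and 9 higher without ctrl replicate 1, 10 and 14 without ctrl replicate 2, and 0 without either Zfp276cko library. In the same way, chosen after the data were seen, DESeq2 called 7 lower and 4 higher without ctrl replicate 1 (beside 4.25% and 7.62% of all genes), 7 and 10 without ctrl replicate 2 (beside 6.91% and 7.9%), and 0 without either Zfp276cko library (beside 0.0988% to 0.53%). Kcnq5, Kcnmb4 and Kcnn3 were among the DESeq2 calls both without ctrl replicate 1 and without ctrl replicate 2, Kcnip3 without ctrl replicate 1 only and Kcnj10 without ctrl replicate 2 only. A lone library was assumed to vary like those of the other genotype, whose spread was narrow in Zfp276cko cells, and the cause was not tested further. The replicate numbers do not pair the libraries by label, the correlation of deviations between equal numbers was 0.0067, and the replicate block gave a median log2 fold change of 0.22 over the tested members (0.07 without it) and 0.048 for Kcnn2 in place of −0.09. The median stayed within 0.181, its SD over pairs of libraries, under every alternative, from −0.0035 to 0.24.

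Of 30 single genes, 12 changed direction under some alternative. Leaving out one library gave ranges of −0.93 to 0.58 for Kcna1, −0.12 to 0.48 for Kcna2, −0.44 to 0.79 for Kcna5, −0.37 to 0.19 for Kcna6, −0.46 to 0.21 for Kcnc1, −0.62 to 0.20 for Kcnd2, −0.19 to 0.12 for Kcnd3, −0.45 to 0.23 for Kcnj16, −0.57 to 0.025 for Kcnk13, −0.17 to 0.94 for Kcnk2, −0.62 to 0.74 for Kcnn2 and −1.29 to 0.41 for Kcnn4. The 8 members named with an unadjusted p of at most 0.05 past the thresholds kept their direction under all 9 alternatives. They were picked from these same libraries, and in each the Zfp276cko pair lay on one side of both ctrl libraries. Leaving out a library could therefore hardly reverse them, and their constant direction is no further evidence for a difference. Counts were few for Kcnj12, Kcna5 and Kcnj8, and each genotype had 2 libraries.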
